A study of Mus musculus with 12 samples.

Results

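The piRNA pathway and the helicases of the chromatoid body were followed in sorted mouse round spermatids through 10 genes taken by symbol from the deposited expression table: Piwil1, Piwil2, Mov10l1, Pld6, Asz1, Mael, Henmt1, Pnldc1, Ddx4 and Ddx25. All 10 were among the 28643 gene symbols used, and all 10 passed the filter on low values in every comparison. The genes were listed by name and function. The cells came from 8-week-old male mice of a line made in C57BL/6 zygotes, sorted by flow cytometry with cycloheximide present to hold ribosomes in place. The Igf2bp3+/- group, which the table names WT, carried 1 intact allele of the m6A reader gene Igf2bp3 and served as the control, and the Igf2bp3-/- group carried a Cas9 frameshift on both alleles, at the exon for the first KH domain. Each genotype gave 3 libraries of total input RNA (RNA-seq) and 3 of mRNAs bound by 4 or more ribosomes (RNC-seq, ribosome nascent-chain complex sequencing), 12 libraries in all. The methods give a poly(A) selection before the libraries were made, so total RNA here means the poly(A) RNA of the input. By the methods, the knockout males of the spermatid experiments were picked for poor fertility, so they need not stand for every knockout male.

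piRNAs are small RNAs of germ cells that guide PIWI proteins to complementary transcripts and hold transposons silent. In round spermatids PIWI proteins gather with RNA helicases and stored RNA in the chromatoid body, a granule beside the nucleus, while precursors are cut at the surface of mitochondria and their ends are trimmed and methylated. Round spermatids also hold many mRNAs off polysomes until later steps of sperm formation, so the share of an mRNA that is on polysomes was of interest beside its level.

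The levels were in FPKM, which is scaled for transcript length and library size and so allows levels to be set side by side between genes. Between 23554 and 25633 symbols were above 0 in an RNA-seq library and between 21490 and 22797 in an RNC-seq library, while the read depth is unknown. The noncoding transcript CT010467.1 alone held 5.68% to 13.3% of all FPKM in RNA-seq and 8.14% to 19.4% in RNC-seq. Within RNC-seq it held 15.9%, 19.4% and 18.4% in Igf2bp3+/- and 8.14%, 11.5% and 14.6% in Igf2bp3-/-, so the genotypes did not overlap. The 7 round spermatid markers summed to between 810 and 943 FPKM in the Igf2bp3+/- RNA-seq libraries, against between 245 and 265 for the 7 spermatocyte markers and between 14.6 and 21.5 for the 7 Leydig markers. Most of the spermatocyte sum was Ccna1, with 214, 231 and 237 FPKM in these libraries. The 7 elongating spermatid markers, several of them highly abundant transcripts, summed to between 8444 and 10896 FPKM in the same libraries. They include Tnp1, Tnp2, Prm1 and Prm2, whose mRNAs the paper measured in its sorted round spermatids, described there as highly pure. This sum therefore does not by itself show elongating cells in the sort. A lower FPKM may come from fewer cells of a type or from less RNA in each cell, and these cannot be told apart in bulk libraries. The Igf2bp3 transcript was not used to check the genotype labels, since a frameshift need not lower it.

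Because polysome loading was the measure in which the members differed most, the sequence around the start codon is shown for the 3 least loaded members, for Pld6 as the most loaded and for Ddx25 as the other chromatoid body helicase. The sequences are those of the GENCODE M21 transcripts on GRCm38, given as up to 9 bases before the start codon and 8 after it, with the start codon in capitals.
Ddx4: gaagctatcATGggagatga
Piwil2: agcctctcaATGgatcctgt
Piwil1: gactggaaaATGactggccg
Pld6: ggcggccATGgggcgctc
Ddx25: accgcagctATGgcgtcgtt
The start codons lie at chr13:112651401-112651403 (minus strand) for Ddx4, chr14:70426696-70426698 (minus) for Piwil2, chr5:128739047-128739049 (plus) for Piwil1, chr11:59787633-59787635 (minus) for Pld6 and chr9:35558398-35558400 (minus) for Ddx25. A purine stood at position -3 in 9 of the 10 members, all but Piwil2, against 84.6% of 20508 protein-coding genes, and a G at position +4 in 7 of 10 against 49.6%. Both letters stood in Pld6, the most loaded, and in Asz1, Ddx25, Henmt1 and Pnldc1, none of which was called lower on polysomes. Of the members called lower in the control, Ddx4, the least loaded, has both as well. Piwil1, Mael and Mov10l1 lack the G at +4, and Piwil2 lacks the purine at -3. Whether these letters bear on loading was not tested.

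The annotated transcripts of the members differ widely in length. Ddx25 has the longest with 6934 bases, of which 5351 form the trailer after the stop codon, and Pld6 the shortest with 948 bases and a leader of only 7. Piwil2 has 4916 bases, Mov10l1 has 4052, Piwil1 has 4016 and Ddx4 has 2762, against a median of 2580 over protein-coding genes. The remaining members, Pnldc1, Henmt1, Asz1 and Mael, have between 1546 and 2092 bases. The letters GGACT, searched on the transcript strand because they form a common m6A context, occurred in the trailer of 5 of 10 members (Piwil1, Piwil2, Mov10l1, Ddx25 and Henmt1), against 55% of protein-coding genes. No methylation was measured here, and a match is not a site.

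Among the members present in the RefSeq promoter table (GRCm38.p6), AACNGNC, a short form of the MYB motif, was searched on both strands because A-MYB, the product of Mybl1, is known to drive piRNA pathway genes in spermatocytes. It was found in 4 of 8 members (Piwil1, Mov10l1, Mael and Pld6). These 8 members have 9 promoters in the table, of which 5 held it, against 32.8% of all promoters. The Piwil1 promoter held 3 copies, and the following stretch, at chr5:128736160-128736189 on the plus strand, carries the copy (in capitals, read on the minus strand) at -75 from the annotated transcript start. It also holds the copy at -66, left in lower case.
Piwil1: cggagggatctGGCAGTTggggctgttagc
The palindrome TGACGTCA, bound by CREM, was in none of the 8 and in 1.79% of all promoters.

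To place the members in the spermatid transcriptome, their total RNA was ranked in Igf2bp3+/- cells. Mael and Ddx4 stood highest, at 405 ± 12.9 and 261 ± 4.13 FPKM (SD, n = 3), above 99.5% and 98.8% of genes tested, followed by Ddx25 at 97.5 ± 0.688 FPKM. Piwil1, Pld6 and Henmt1 followed at 14.3 ± 0.918, 12.8 ± 0.228 and 12.2 ± 1.44 FPKM, where Pld6 and Henmt1 overlapped and Piwil1 lay above Pld6 in every library. Piwil2, Asz1 and Mov10l1 came next at 8.89 ± 1.10, 6.95 ± 0.689 and 5.44 ± 0.316 FPKM, without overlap between neighbours in this order. Pnldc1 was lowest at 1.28 ± 0.359 FPKM, above 43.4% of genes. Mael, Ddx4 and Ddx25 together made up between 92.3% and 92.8% of the members' summed FPKM in these libraries, and between 87.4% and 91.6% in the Igf2bp3-/- RNC-seq libraries.

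**Figure D1:**
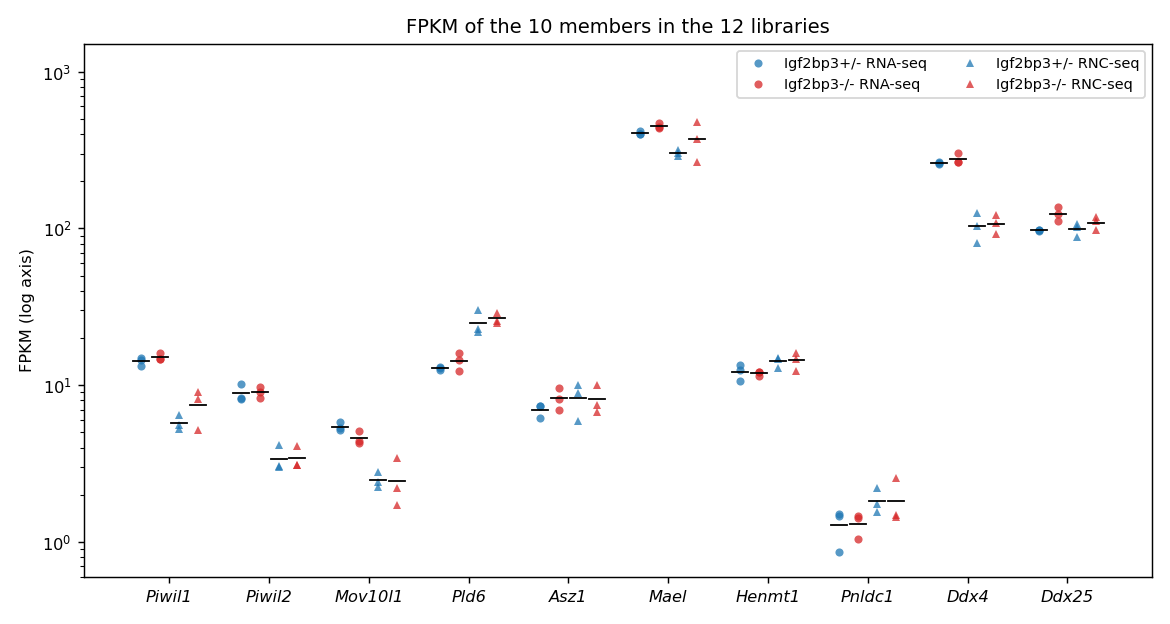
FPKM of each member (log axis) in the 12 libraries. Circles are RNA-seq and triangles RNC-seq libraries, blue Igf2bp3+/- and red Igf2bp3-/-, 1 point a library, and black bars the mean of 3. The RNC-seq points of Piwil1, Piwil2, Mov10l1 and Ddx4 lie below their RNA-seq points in both genotypes, and those of Pld6 lie above.

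To ask how far each transcript was on polysomes, RNC-seq was compared with RNA-seq within each genotype (limma on log2(FPKM + 0.1), Benjamini-Hochberg over all genes). The log2 difference, called polysome loading here, is relative to the library as a whole, so 0 is no absolute level of translation. By the methods, input and polysomal RNA came from the same extract of each mouse, the labels do not say whether equal replicate numbers mark the same mouse, and the libraries were fitted as independent. In Igf2bp3+/- spermatids, Piwil1, Piwil2, Mov10l1, Ddx4 and Mael were lower on polysomes than in total RNA and Pld6 was higher, 5 and 1 of 10 members, against 25.1% and 18.6% of all 17942 genes tested. In Igf2bp3-/- spermatids the same members apart from Mael passed, 4 lower and 1 higher of 10, against 10.9% and 10.1% of 18456 genes. The median loading over the members was -0.20 and -0.25 in the control and the knockout, against -0.09 and -0.04 over all genes. Asz1, Henmt1, Pnldc1 and Ddx25 passed in neither genotype.

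How the zero of this scale is set moved the balance of calls over all genes. In Igf2bp3+/- the calls split into 3331 higher and 4503 lower. Median centring of the libraries gave 4630 and 3655, and rescaling without CT010467.1 gave 2467 and 5911. In Igf2bp3-/- the counts were 1872 and 2008, 2261 and 1879, and 1216 and 3221, in the same order. The loading of Piwil1, Piwil2, Mov10l1, Ddx4 and Pld6 kept its direction in each of these settings. The Igf2bp3-/- calls rested on replicates 1 and 3. Without Igf2bp3-/- replicate 1 or without replicate 3, 0 members passed, with 3 genes and 1 gene passing in all. At an unadjusted p under 0.05 in limma there were 4219 and 4493 genes, and the direction of the members named as changed stayed. Without Igf2bp3-/- replicate 2, 5 members and 4040 genes passed.

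**Figure D2:**
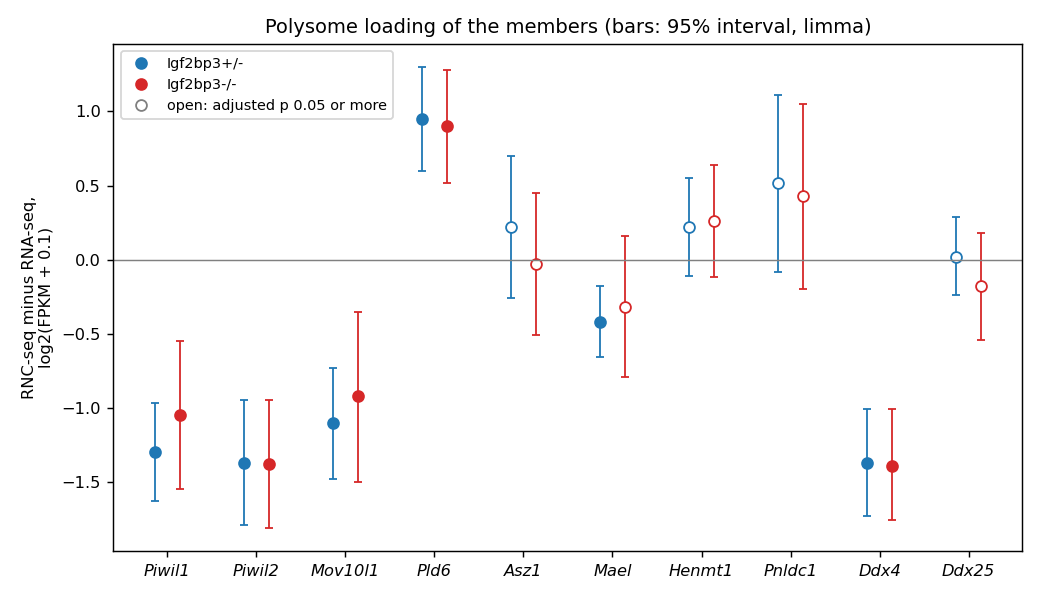
Polysome loading of each member, the log2(FPKM + 0.1) difference of RNC-seq minus RNA-seq, in Igf2bp3+/- (blue) and Igf2bp3-/- (red). Bars are 95% intervals from limma with 3 libraries an assay, and filled points have an adjusted p under 0.05. Piwil2 and Ddx4 sit lowest, at -1.37 in the control and -1.38 and -1.39 in the knockout, and Pld6 sits highest, at 0.95 and 0.90.

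The mRNAs of both PIWI proteins were lower on polysomes than in total RNA in both genotypes. Piwil1 on chromosome 5 (128702524 to 128755474) encodes MIWI, the PIWI protein of pachytene spermatocytes and round spermatids and a main component of the chromatoid body. Its RNA-seq FPKM was 13.2, 14.5 and 15.0 in Igf2bp3+/- and its RNC-seq FPKM 5.25, 5.55 and 6.46, so every polysomal library lay below every total library and the ratio of means was 0.404. In Igf2bp3-/- the values were 14.7, 16.1 and 14.8 in RNA-seq and 8.16, 9.04 and 5.20 in RNC-seq, again without overlap. Loading was -1.30 ± 0.15 (SE, limma adjusted p = 0.000256) in the control and -1.05 ± 0.22 (adjusted p = 0.0121) in the knockout. Only 9.53% of genes tested had a lower loading in the control.

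Piwil2 on chromosome 14 (70372477 to 70429383) encodes MILI, which acts from the earlier germ cell stages onward. Its FPKM was 8.16, 8.35 and 10.2 in RNA-seq and 3.00, 3.04 and 4.19 in RNC-seq of the control. The knockout gave 8.24, 9.76 and 9.10 in RNA-seq and 3.10, 4.09 and 3.08 in RNC-seq. The assays were apart by more than the spread of their libraries in both genotypes, and loading was -1.37 ± 0.19 (SE, limma adjusted p = 0.00062) and -1.38 ± 0.19 (adjusted p = 0.0031).

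Among the factors that make piRNAs, the helicase and the nuclease went opposite ways. Mov10l1 on chromosome 15 (88982909 to 89055152) encodes the helicase that feeds piRNA precursors to processing. Its FPKM was 5.19, 5.33 and 5.80 in RNA-seq and 2.40, 2.25 and 2.82 in RNC-seq of the control, and 4.42, 4.26 and 5.08 against 1.73, 3.42 and 2.22 in the knockout. Polysomal libraries lay below total libraries in both, with a loading of -1.10 ± 0.17 (SE, limma adjusted p = 0.000991) and -0.92 ± 0.26 (adjusted p = 0.0324). The knockout call was lost without the filter on low values (adjusted p = 0.0547) and with the length trend removed (-0.58, adjusted p = 0.109), the setting described with the lengths.

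Pld6 on chromosome 11 (59783897 to 59787645) encodes the mitochondrial nuclease, also named MitoPLD or Zucchini, that cuts piRNA precursors. Its FPKM was 12.5, 13.0 and 12.8 in RNA-seq and 30.2, 21.9 and 23.0 in RNC-seq of the control. In the knockout it was 12.4, 14.5 and 16.0 in RNA-seq and 25.8, 25.1 and 29.0 in RNC-seq. Pld6 was the member with more signal on polysomes in every library of both genotypes, with a ratio of means of 1.96 and 1.86. Loading was 0.95 ± 0.15 (SE, limma adjusted p = 0.00133) and 0.90 ± 0.17 (adjusted p = 0.00796), and 89.1% of genes tested had a lower loading in the control.

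Asz1 on chromosome 6 (18050964 to 18109061) encodes GASZ, a scaffold on mitochondria that holds the piRNA factors together. In the control its FPKM was 7.34, 7.34 and 6.15 in RNA-seq and 10.1, 5.89 and 8.90 in RNC-seq, which overlapped. The knockout values of 6.98, 8.15 and 9.60 against 7.52, 6.75 and 10.1 overlapped too. The 95% intervals of the loading, -0.26 to 0.70 and -0.51 to 0.45, include 0 and are wide.

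Mael on chromosome 1 (166201201 to 166238747) encodes maelstrom, needed for transposon silencing and found in the germ granules. It had the highest level of the members, 420, 398 and 398 FPKM in RNA-seq and 317, 290 and 303 in RNC-seq of the control, without overlap. In the knockout the RNA-seq values were 442, 439 and 468 and the RNC-seq values ran from 266 to 474, with 474, 374 and 266 in the order of the replicate numbers, and the assays overlapped. Loading was -0.42 ± 0.10 (SE, limma adjusted p = 0.0111) in the control and -0.32 ± 0.21 (adjusted p = 0.322) in the knockout. The control call was lost with each library centred on its median (-0.26, adjusted p = 0.0682) and without Igf2bp3+/- replicate 1 (adjusted p = 0.0876) or replicate 3 (0.0551). With quantile normalization Mael had -0.80 (adjusted p = 0.000257) in the control and passed in the knockout as well, at -0.61 (0.0411). Rescaled without CT010467.1 it had -0.64 (0.000728) and -0.54 (0.0732).

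The enzymes that finish the 3′ ends of piRNAs did not pass in either genotype. Pnldc1 on chromosome 17 (12888729 to 12910230) encodes the trimmer of these ends, and Henmt1 on chromosome 3 (108939873 to 108960774) encodes the methyltransferase that then protects them. Henmt1 had 12.6, 13.5 and 10.6 FPKM in RNA-seq and 15.0, 12.9 and 14.7 in RNC-seq of the control, which overlapped, and 12.2, 12.2 and 11.4 against 16.1, 12.4 and 14.7 in the knockout, which did not. Its loading of 0.22 ± 0.15 and 0.26 ± 0.17 (SE) did not pass in limma (adjusted p = 0.262 and 0.302), except in the control with median centring (0.37, adjusted p = 0.036).

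Pnldc1 was read near 1 FPKM. Its values were 1.47, 0.868 and 1.51 in RNA-seq and 2.22, 1.55 and 1.76 in RNC-seq of the control, and 1.42, 1.04 and 1.46 against 2.57, 1.44 and 1.49 in the knockout. The polysomal libraries lay above the total libraries in the control and overlapped them in the knockout. Loading was 0.52 ± 0.26 (SE, limma adjusted p = 0.144) and 0.43 ± 0.28 (adjusted p = 0.304), and passed with quantile normalization in the control (0.73, adjusted p = 0.047). Henmt1 shares 14.7% of its exonic bases with Gm9857 on the opposite strand and Pnldc1 5.41% with AL589878.1, and both are uncertain over that part because the use of strand in counting is not stated.

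The chromatoid body helicases differed from each other in loading. Ddx4 on chromosome 13 (112598333 to 112652475) encodes mouse VASA homolog, a DEAD-box helicase that marks germ cells and their granules. Its FPKM was 266, 260 and 257 in RNA-seq and 103, 80.3 and 125 in RNC-seq of the control, and 264, 266 and 304 against 121, 108 and 91.5 in the knockout. The lowest total library was more than 2-fold above the highest polysomal library in each genotype, and loading was -1.37 ± 0.16 (SE, limma adjusted p = 0.000309) and -1.39 ± 0.17 (adjusted p = 0.0021). Only 3.04% of genes had a lower loading in the knockout.

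Ddx25 on chromosome 9 (35536647 to 35558528) encodes the gonadotropin-regulated testicular helicase (GRTH), which exports mRNAs to the chromatoid body and aids their translation. Its FPKM was 98.2, 97.6 and 96.8 in RNA-seq and 102, 88.8 and 107 in RNC-seq of the control. In the knockout it was 111, 123 and 137 in RNA-seq and 118, 112 and 97.5 in RNC-seq. The assays overlapped in both genotypes, and loading was 0.02, with a 95% interval from -0.24 to 0.29, and -0.18, from -0.54 to 0.18. Among the 53 genes with Ddx or Dhx symbols, most of them RNA helicases, Ddx4 ranked 2 and Ddx25 ranked 4 by RNA-seq FPKM in the control, with Ddx5 (452 FPKM) first. Counted from the lowest loading, Ddx4 was 10 and Ddx25 was 44 of the 52 tested, of which 29 were lower and 0 higher on polysomes in the control (37 at an unadjusted p under 0.05 in limma). Over all genes, 25.1% were lower and 18.6% higher in the control.

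Loading fell with transcript length across all genes, and the members were therefore set beside genes of like length. In the control the median loading was 0.75 for transcripts under 1000 bases and 0.21, -0.21, -0.47 and -0.67 for each further 1000 bases, and -0.98 from 5000 bases on. In the knockout the medians ran from 0.58 to -0.58. Pld6, at 948 bases, had 0.95 and 0.90, above its class medians of 0.75 and 0.58. Ddx4, at 2762 bases, lay far below its class median of -0.21, and Ddx25, at 6934 bases, lay well above its class median of -0.98.

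A fit with the trend on transcript length taken out of each library, added after the data were seen, kept Piwil1, Piwil2, Mov10l1, Mael and Ddx4 lower in the control and made each of them smaller except Mael. Piwil1 moved from -1.30 to -0.77 and Piwil2 from -1.37 to -0.72. Mov10l1 moved from -1.10 to -0.57, Pld6 from 0.95 to 0.51 and Ddx4 from -1.37 to -1.07, with adjusted p-values in limma of 0.0131, 0.0115 and 0.00028. In the knockout Pld6 moved from 0.90 to 0.55 and still passed (adjusted p = 0.031). Ddx25 moved from 0.02 to 0.87 and passed in the control (adjusted p = 0.000221), while the knockout value turned from -0.18 to 0.35 without passing (adjusted p = 0.13). The position of Ddx25 rests on its annotated trailer of 5351 bases, and which transcript end the spermatids use was not tested.

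**Figure D3:**
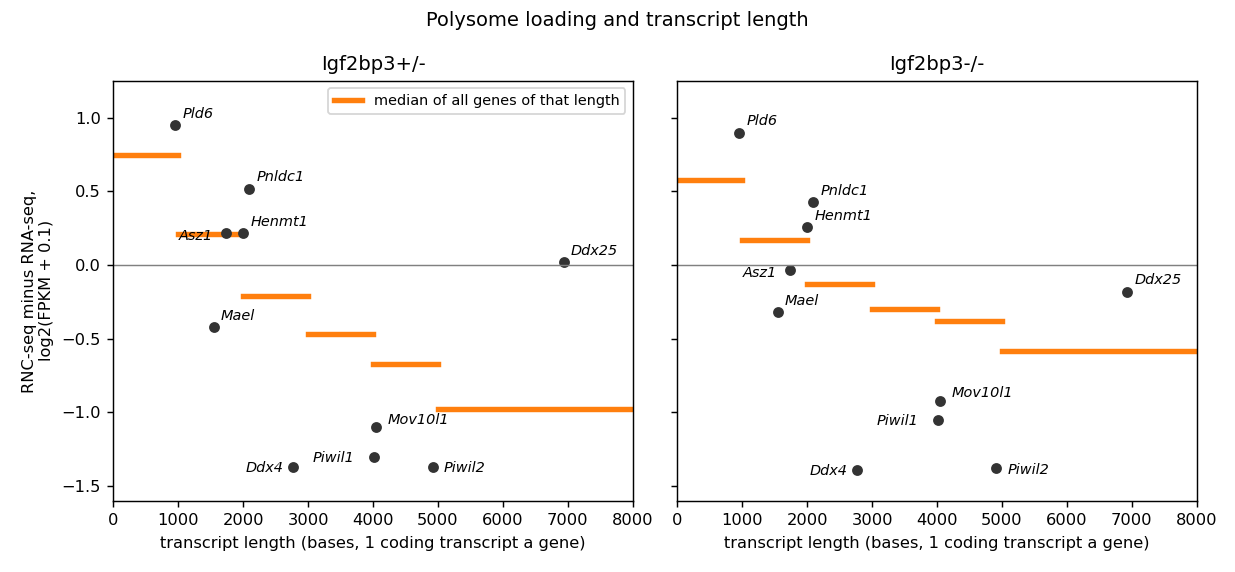
Polysome loading of the members (black points) against the length of 1 annotated coding transcript a gene, in Igf2bp3+/- (left) and Igf2bp3-/- (right). Orange bars are the median loading of all genes with a mean over 1 FPKM in each length class, from 0.75 to -0.98 on the left and 0.58 to -0.58 on the right, with the last class open to the right. Ddx4, Piwil1, Piwil2 and Mov10l1 lie below the bars of their length in both panels, Ddx25 above them.

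To ask whether loss of IGF2BP3 altered the level of these transcripts, Igf2bp3-/- was compared with Igf2bp3+/- in RNA-seq. No member passed, 0 of 10 at an adjusted p under 0.05 in limma, against 0.256% of 20352 genes. At an unadjusted p under 0.05 there was 1 of 10, against 3190 of all genes. That member was Ddx25, with 111, 123 and 137 FPKM in the knockout against 98.2, 97.6 and 96.8 in the control. Every knockout library lay above every control library, with a log2 difference of 0.33 ± 0.09 (SE, 95% interval 0.12 to 0.55, adjusted p = 0.197). Over the settings tried, the log2 difference ran from 0.19 to 0.43 and the adjusted p from 0.0984 to 0.471.

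Libraries did not overlap for 3 of 10 members, Ddx25 and Mael higher and Mov10l1 lower in the knockout, against 22.7% of all genes. Mael differed by 0.15 ± 0.08 (SE, adjusted p = 0.384 in limma) and turned to -0.026 with quantile normalization. Mov10l1 differed by -0.24 ± 0.12 (adjusted p = 0.376), with 4.42, 4.26 and 5.08 FPKM against 5.19, 5.33 and 5.80, and kept its sign in every setting. The other 7 members lay between -0.03 and 0.24. Piwil1 differed by 0.09, with an interval from -0.13 to 0.32, and Ddx4 by 0.09, from -0.11 to 0.28, which leaves out a change of 1.5-fold in either direction for both.

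In RNC-seq again 0 of 10 members passed in limma, against 0.115% of 19051 genes, and 0 had an unadjusted p under 0.05, against 1235 of all genes. No member's libraries were apart, against 11.3% of all genes. Piwil1 had the largest difference, 0.34 ± 0.26 (SE, interval -0.23 to 0.90, adjusted p = 0.834), with 8.16, 9.04 and 5.20 FPKM in the knockout against 5.25, 5.55 and 6.46 in the control. Knockout replicates 1 and 2 lay above all control libraries and replicate 3 just below them. Mael followed with 0.25, from -0.25 to 0.75. The other 8 lay between -0.07 and 0.13, where the median over all genes was 0.13 and fell to 0.01 with median centring. Rescaled without CT010467.1, whose share of RNC-seq was lower in the knockout, that median was 0.02. The interval of Mov10l1 ran from -0.70 to 0.57, that of Pnldc1 from -0.70 to 0.62 and that of Asz1 from -0.59 to 0.57. A 1.5-fold fall was therefore not left out for Mov10l1, Pnldc1 or Asz1. A 1.5-fold rise was not left out for Pnldc1, Piwil1 or Mael.

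Translational efficiency (TE), the ratio of RNC-seq to RNA-seq FPKM, was compared between the genotypes as the interaction in a fit of all 12 libraries, which is also the test of whether loading differed. No member passed, 0 of 10 in limma, against 0.00543% of 18414 genes, and 0 had an unadjusted p under 0.05, against 1312 of all genes. Differences ran from -0.25 ± 0.31 (SE) for Asz1 to 0.25 ± 0.27 for Piwil1. Ddx25 had the smallest p of the members, 0.303, with -0.20 ± 0.19, and the interval from -0.60 to 0.20. By the ratio of mean FPKM alone, 0 of 10 members moved past 1.5-fold, where 27.1% of all genes did, a share that includes genes down to a mean of 0.1 FPKM. The intervals did not leave out a 1.5-fold rise for Piwil1 (up to 0.83), Mael (0.62), Mov10l1 (0.85) or Pnldc1 (0.75). They did not leave out a 1.5-fold fall for Asz1 (down to -0.91), Ddx25 (-0.60) or Pnldc1 (-0.93). The TE ratio of knockout over control was highest for Piwil1 at 1.22 and lowest for Asz1 at 0.826, and was 0.988 for Piwil2 and 0.977 for Ddx4.

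**Figure D4:**
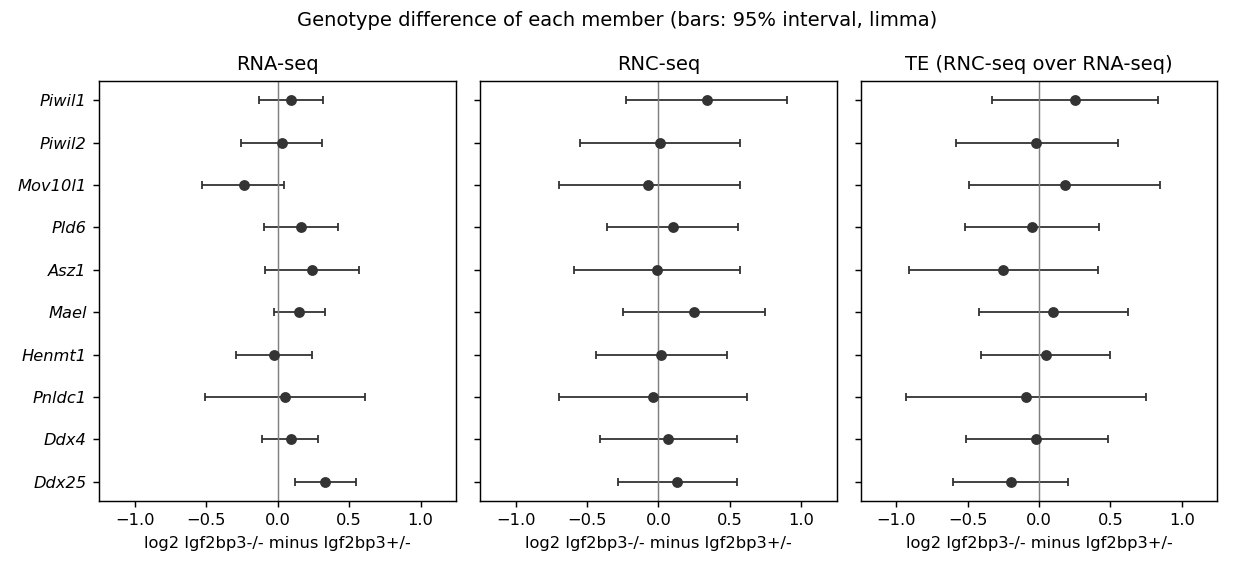
Genotype difference of each member, log2(FPKM + 0.1) of Igf2bp3-/- minus Igf2bp3+/-, in RNA-seq, in RNC-seq and for TE. Points are limma estimates and bars 95% intervals from 3 libraries a group. Every interval includes 0 apart from that of Ddx25 in RNA-seq, 0.12 to 0.55, and no adjusted p was under 0.05.

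Some markers of other cells moved with the genotype beside these values. The 7 Leydig markers summed to between 14.6 and 21.5 FPKM in the control and between 46.4 and 52.9 in the knockout RNA-seq, and to between 6.23 and 13.9 against between 50.4 and 100 in RNC-seq. Of the 6 tested in RNA-seq, 3 passed (Insl3, Cyp17a1 and Hsd3b1), with Insl3 also passing in RNC-seq, while Hsd17b3 was listed at 0 in all 3 control RNA-seq libraries. Sertoli markers (6 measured) summed to between 3.49 and 4.49 against between 7.26 and 7.88 in RNA-seq. Most of that rise was Clu, which passed, with a mean of 3.12 in the control and 6.69 in the knockout. Of the 5 Sertoli markers tested, 3 had a higher estimate, while Gata1 and Rhox5 had lower ones (-0.53 and -0.81). The 6 macrophage markers, of which Cd74 passed, summed to between 3.45 and 5.22 against between 6.63 and 7.67 in RNA-seq.

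Round spermatid markers had higher estimates too, with 0 of 7 passing in limma. All 7 had a higher RNA-seq estimate in the knockout, with a median log2 difference of 0.32, near the 0.33 of Ddx25, and 5 of 7 had an unadjusted p under 0.05 in limma. They summed to between 1077 and 1257 FPKM in the knockout RNA-seq against between 810 and 943. Spermatocyte markers summed to between 245 and 286 FPKM against between 245 and 265, which overlapped. Most of both sums was Ccna1, with a mean of 238 in the knockout and 227 in the control. The 7 elongating spermatid markers had a higher TE estimate in the knockout in 7 of 7, with a median log2 difference of 0.40, and a higher RNC-seq estimate in 6 of 7, with a median of 0.44. In RNA-seq 2 of 7 had a higher estimate, with a median of -0.15. None of them passed in limma in the 3 comparisons, with 1 in RNA-seq, 2 in RNC-seq and 2 in TE at an unadjusted p under 0.05. They summed to between 9471 and 9586 FPKM in the knockout RNA-seq against between 8444 and 10896, and to between 10416 and 21275 against between 11517 and 14168 in RNC-seq. The part of the cell mixture in the members' values was not tested.

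Loading among 16 other piRNA pathway proteins ran from -2.72 to 0.95 in the control and from -2.45 to 0.57 in the knockout. Of these 16 genes, 7 were lower and 2 higher on polysomes in the control and 7 lower and 1 higher in the knockout (limma adjusted p under 0.05). Over all genes, 25.1% were lower and 18.6% higher in the control and 10.9% and 10.1% in the knockout. The medians of the 16 were -0.38 and -0.44. The lowest were Tex15, a nuclear factor of piRNA-guided DNA methylation, at -2.72 and -2.45, and Tdrd6, a Tudor scaffold of the chromatoid body, at -2.44 and -1.73. Tdrd6 had 157, 183 and 187 FPKM in control RNA-seq and only 28.0, 31.2 and 38.0 in RNC-seq. The highest were the small zinc finger partners of PIWI proteins, Gtsf1 at 0.95 and 0.57 (adjusted p = 0.00199 and 0.0402) and Gtsf1l at 0.49 and 0.31 (0.0348 and 0.2). None of the 16 passed between genotypes in RNA-seq, RNC-seq or TE in limma, with 3, 0 and 1 of them at an unadjusted p under 0.05.

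**Figure D5:**
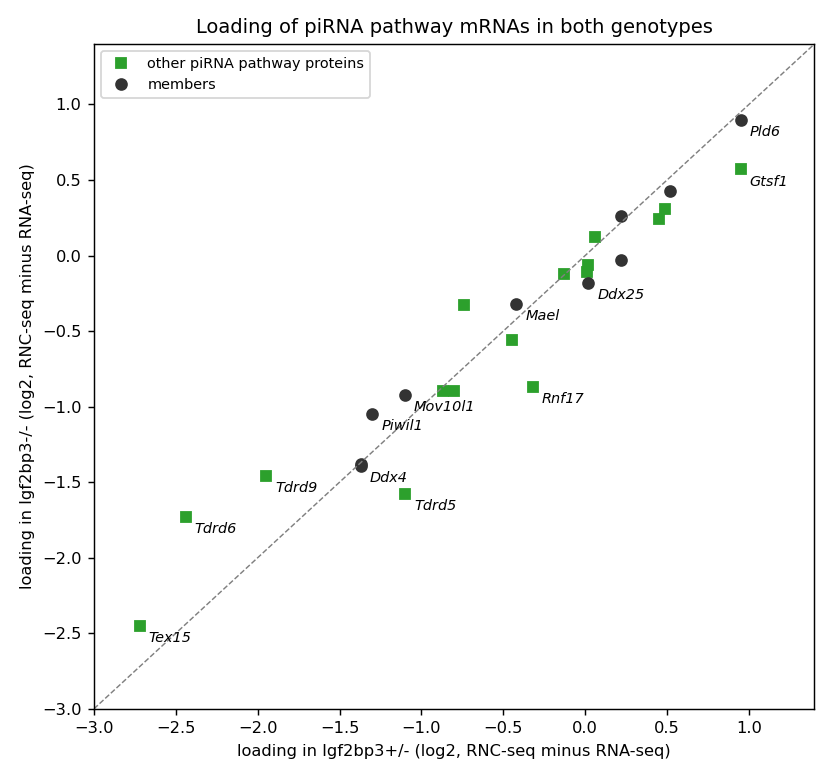
Polysome loading (log2, RNC-seq minus RNA-seq) in Igf2bp3+/- on the horizontal and in Igf2bp3-/- on the vertical axis, for the 10 members (black circles) and 16 other piRNA pathway proteins (green squares). The dashed line marks equal loading. Tex15 sits lowest at -2.72 and -2.45, and Pld6 highest at 0.95 and 0.90.

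Of 3 factors that drive transcription of piRNA loci, 1 was lower on polysomes in the control and 0 in the knockout. Tcfl5 had -0.67 in the control (adjusted p = 0.00666 in limma) and -0.22 in the knockout (0.38), and Mybl1 had -0.86 and -0.77 without passing. Of 9 mRNA regulators linked to the chromatoid body, Ago2 and Dicer1 fell under the filter. Of the other 7, 4 were lower and 0 higher in the control and 2 lower and 0 higher in the knockout, among them the endonuclease Smg6 at -1.80 and -1.37. The nonsense-mediated decay helicase Upf1 had -1.30 and -0.47, of which the control value passed. The kinesin Kif17 (-0.37 and -0.04) and the deadenylase Cnot7 (-0.12 and -0.15) did not pass. For both lists, the shares over all genes were 25.1% lower and 18.6% higher in the control and 10.9% and 10.1% in the knockout.

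mRNAs known to depend on GRTH were read beside Ddx25. Tnp2, a transition protein, had a loading of 0.42 in the control (adjusted p = 0.0427 in limma) and 0.75 in the knockout (0.0577), and Ace, the testis form of angiotensin-converting enzyme, had -0.43 (0.0283) and 0.30 (0.437). Pgk2 and Hmgb2 did not pass in either genotype. No gene of the 4 passed between genotypes in limma, with 1 at an unadjusted p under 0.05 in each of RNA-seq, RNC-seq and TE.

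Genes of meiosis were read as a further list. Of 11 genes of the meiotic chromosome axis and synaptonemal complex, 5 were higher and 4 lower on polysomes in the control and 3 and 3 in the knockout, with medians of 0.48 and -0.00. Over all genes, 18.6% were higher and 25.1% lower in the control and 10.1% and 10.9% in the knockout. Sycp2 (-1.48 and -1.91) and Smc1b (-1.32 and -1.36) were lowest, and Tex12 (1.20 and 1.41) and Syce3 (1.07 and 1.22) highest.

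Over the 12 libraries, the genes whose log2 FPKM followed Piwil1 most closely were Poldip2, Trim36 and Smg6, with Pearson's r of 0.996, 0.993 and 0.993 among 7315 genes with a mean of at least 5 FPKM. For Ddx25 they were Catsper4, Ak8 and Dcst1, with 0.952, 0.952 and 0.926. The libraries fall into the RNA-seq and the RNC-seq set, and for Piwil1 such a value mostly reflects a like step between them. It is given as a measure of likeness, with no test.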

How the data were processed

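The authors deposited a table of FPKM per gene symbol and library. By the methods and the submitters' processing notes, they trimmed reads with Trim Galore 0.6.6, mapped them with HISAT2 to GRCm38 and ran StringTie 2.1.7 under a reference annotation. The annotation release and the use of strand are not given in the sources used here, and the labels and the methods name different library kits and instruments. The labels give 3 replicates a group, and the methods a separate sort from each mouse.

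Of 28668 symbols, 25 that spreadsheet software had turned into dates (0.0995% of the FPKM) were left out, and 27839 matched GENCODE M21, which gave positions and 1 coding transcript a gene (by APPRIS rank, then length). No counts could be recovered: between 10.1% and 22.6% of low values were within 0.05 of a whole multiple, where evenly spread values give 10%. Depth is therefore unknown, and no interval or floor from counting is given. Copies were sought with BLAST 2.17.0 (95% identity over 50% of the transcript), and no member had a near copy.

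Tests ran in R 4.3.3 with limma 3.58.1 on log2(FPKM + 0.1) (intensity trend, two-sided, Benjamini-Hochberg over all genes with a mean FPKM above 0.1 in the assays compared, limit 0.05). A fold change on this scale understates that of low genes. Genotype was tested within RNA-seq and within RNC-seq, polysome loading within each genotype, and TE as the interaction over 12 libraries. The fits were tested on simulated data. Tables were made with Python 3.11.15, pandas 2.3.3 and numpy 2.4.6.

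The members and gene lists were chosen with earlier results of these data known. All members are named, as are genes of the other lists past the limit between genotypes, the 2 most and 2 least loaded of each list of pathway genes (mean RNA-seq FPKM of at least 1), and the 3 genes most like Piwil1 and Ddx25. Alternatives were a pseudocount of 1, no filter, median centring, quantile normalization, rescaling without CT010467.1, library weights, a replicate block, leaving out each replicate, the limit in the study's methods (unadjusted p under 0.05 with a log2 change over 1.5), the same p with a change over 1.5-fold, which a supplementary legend gives instead, and a lowess trend on log10 transcript length removed from each library. The last 2 were added after seeing the data.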

Additional observations from a re-analysis of the deposited data

How the results depend on the processing

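The 5 comparisons were refitted for every member under each alternative. No member passed between genotypes in RNA-seq, RNC-seq or TE in any of them. In polysome loading 5 to 7 members passed in Igf2bp3+/- and 0 to 6 in Igf2bp3-/-, the lowest without Igf2bp3-/- replicate 1 or 3. Whether equal replicate numbers pair the libraries of a mouse could not be settled from the labels. Deviations of same-numbered libraries correlated across assays by 0.205, -0.104 and 0.198 in Igf2bp3+/- and by -0.0513, 0.165 and 0.126 in Igf2bp3-/-, and between -0.083 and 0.241 across genotypes, so not every pair was over 0.1 and the fits without the block were kept. With a replicate block the genes called between genotypes numbered 4 instead of 52 in RNA-seq, 31 instead of 22 in RNC-seq and 0 instead of 1 in TE, and the members called stayed 6 and 5 in loading. The cause was not tested for any change below.

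Over all genes, the calls in RNA-seq, RNC-seq and TE numbered 158, 188 and 196 with an unadjusted p under 0.05 and a log2 change over 1.5, and 1109, 1102 and 1207 with that p and a change over 1.5-fold, with 0 members among them. Without the filter they numbered 31 in RNA-seq and 2 in RNC-seq. RNA-seq gave 85 with the length trend removed and 84 with library weights. RNC-seq gave 13 with median centring and 12 with quantile normalization. TE gave 0 with a pseudocount of 1 and 0 with library weights, with 1372 and 1495 at an unadjusted p under 0.05, and 4973 by the ratio of means without a test. The higher share of calls, 76.9% in RNA-seq and 68.2% in RNC-seq, became 63.5% and 53.3% when rescaled without CT010467.1. Leaving out single replicates gave 9 to 38 genes in RNA-seq (9 without Igf2bp3-/- replicate 1 or 2), 0 to 20 in RNC-seq (0 without Igf2bp3-/- replicate 1), 0 to 2 in TE, 4885 to 6520 for loading in Igf2bp3+/- (4885 without replicate 1, 5176 without replicate 3) and 1 to 4040 in Igf2bp3-/-, where the members called ran from 0 to 5. Of single libraries, Igf2bp3+/- replicate 3 in RNA-seq and Igf2bp3+/- replicate 1 in RNC-seq were the ones whose loss moved the count by less than 1.5 times.

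Directions turned only for values that had not passed. In RNA-seq these were Piwil1 (-0.0298), Piwil2 (-0.10), Ddx4 (-0.0355) and Pnldc1 (-0.0653) rescaled without CT010467.1, Piwil2 (-0.0294), Mael (-0.026) and Ddx4 (-0.0921) with quantile normalization, and Pld6 (-0.00759) and Pnldc1 (-0.018) with the length trend removed. In RNC-seq, median centring, quantile normalization and rescaling gave Piwil2 -0.11, -0.12 and -0.11, Pld6 -0.0152, -0.0361 and -0.0141, Ddx4 -0.0494, -0.0861 and -0.0486, and Henmt1 -0.10, -0.11 and -0.10. Ddx25 turned to -0.0143 with quantile normalization. Removing the length trend gave Piwil2 -0.18, Ddx4 -0.0799, Ddx25 -0.0879 and Henmt1 -0.12, and library weights gave Piwil2 -0.11 and Ddx4 -0.0331. In TE, Mael (-0.0269) and Henmt1 (-0.0828) turned with median centring, Ddx4 (0.00936) with quantile normalization, and Mov10l1 (-0.016), Pld6 (0.0456) and Henmt1 (-0.0154) with the length trend removed. In loading in Igf2bp3+/-, Asz1 (-0.00108), Ddx25 (-0.20) and Henmt1 (-0.00696) turned when rescaled and Ddx25 (-0.11) with quantile normalization. In Igf2bp3-/-, Asz1 turned with median centring (0.0112) and library weights (0.0323), and Ddx25 with the length trend removed (0.35).

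Leaving out single replicates, the members whose sign turned ranged as follows. In RNA-seq Piwil2 ran from -0.0316 to 0.12, Henmt1 from -0.12 to 0.0454 and Pnldc1 from -0.19 to 0.19. In RNC-seq Piwil2 ran from -0.12 to 0.16, Mov10l1 from -0.32 to 0.15, Asz1 from -0.24 to 0.14, Ddx4 from -0.10 to 0.22, Henmt1 from -0.0655 to 0.12 and Pnldc1 from -0.30 to 0.10. In TE Piwil2 ran from -0.0905 to 0.0579, Mael from -0.11 to 0.35, Mov10l1 from -0.13 to 0.37, Pld6 from -0.15 to 0.10, Ddx4 from -0.18 to 0.15, Henmt1 from -0.0913 to 0.17 and Pnldc1 from -0.29 to 0.11. In loading Ddx25 ran from -0.0391 to 0.10 in Igf2bp3+/- and Asz1 from -0.10 to 0.0898 in Igf2bp3-/-.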
